A study of Mus musculus with 8 samples.

Results

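The nuclear genes of oxidative phosphorylation were followed in the mesenchyme of the embryonic mouse head. Genes were taken by symbol, as those starting with Ndufa, Ndufb, Ndufc, Ndufs or Ndufv and a number, Sdha to Sdhd, all Uqcr genes, Cox4 to Cox8 genes with a letter, and all Atp5 genes. This gave 84 of the 23420 genes measured, of which 37 belong by name to complex I, 4 to complex II, 8 to complex III, 18 to complex IV and 17 to complex V. Total RNA was sequenced from supraorbital mesenchyme (SOM) and from early migrating mesenchyme (EMM) of wild-type C57BL/6 embryos at E12.5. Each group had 4 libraries, each library was a pool from 4 to 5 embryos, and the surface ectoderm and brain had been peeled away with dispase. The sources used do not say whether a SOM and an EMM pool share embryos, and p-values measure the spread between these pools. The comparison asked which transcripts differ between the tissue above the eye and the early migrating tissue.

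Oxidative phosphorylation is carried out in the inner mitochondrial membrane. Complexes I and II pass electrons from NADH and succinate to ubiquinone, complex III passes them on to cytochrome c, and complex IV passes them to oxygen. Complexes I, III and IV pump protons while doing so, and complex V, the ATP synthase, uses the proton gradient to make ATP. Complex II is the only one that pumps no protons and that has all of its subunits encoded in the nucleus, and it is also an enzyme of the citric acid cycle. The mitochondrially encoded subunits of the other complexes are not analysed here.

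The SOM libraries held 16.8 to 33.7 M reads and the EMM libraries 12.7 to 22.4 M. All 11 mesenchyme markers were detected in both groups, with a summed level of 378730 to 436867 normalized counts in SOM and 898286 to 1034110 in EMM, most of it collagen. Markers of other cell types differed widely, where 36.0% of all genes tested were higher in SOM and 36.1% lower. Of 8 tested neuron markers 4 were higher in SOM, Stmn2, Gap43, Tubb3 and Elavl4 (3.26, 1.43, 1.20 and 0.71), and 3 were lower, Syt1, Elavl3 and Snap25 (-3.02, -2.30 and -0.83), with a summed level over 10 of 4524 to 4908 in SOM and 1841 to 2319 in EMM. The summed level of 11 macrophage markers was 2854 to 3229 in SOM and 11533 to 14379 in EMM, and that of 12 red blood cell markers, with Hba-a1 and Hba-a2 at 0, was 82031 to 99602 in SOM and 152758 to 425437 in EMM. Of 9 tested surface ectoderm markers 2 were lower in SOM, Krt8 and Cdh1 (-2.89 and -2.58), and 7 did not pass. The summed level of 10 such markers was 260 to 496 in SOM and 780 to 1090 in EMM. Of 10 tested endothelial markers 2 were higher in SOM, 6 were lower and 2 did not pass. The part of these cell types in the differences of the members was not tested. In bulk tissue, fewer cells of a type and less RNA per cell cannot be told apart.

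Most oxidative phosphorylation transcripts were modestly higher in SOM, while the 4 members of complex II showed no common direction. Of the 84 members, 79 had at least 10 normalized counts in at least 4 libraries and were tested, 62 were higher in SOM, 3 were lower and 14 did not pass. The test was limma on log2(normalized count + 1) over all 14249 genes, with Benjamini-Hochberg adjusted p-values called at 0.05. Of all genes tested, 36.0% were higher in SOM and 36.1% lower, together 72.1%. The median difference over the tested members was 0.22 (log2, SOM minus EMM), against 0.01 over all genes tested. All 4 SOM libraries lay above all 4 EMM libraries in 54 members, against 32.9% of all genes tested, and below them in 2 members, against 33.2%. Reads of the members made up 0.976% to 1.07% of all reads in SOM libraries and 0.815% to 0.850% in EMM libraries.

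Differences between SOM and EMM varied with transcript length. Across the tested genes with a known length, short transcripts were higher in SOM. The median difference was 0.48 for genes of up to 500 bases, 0.32 from 501 to 700 bases and -0.17 above 5000 bases. Between length and difference, Pearson's r was -0.15 and Spearman's rho -0.20 across these 14154 genes, and -0.07 and -0.04 across the 79 tested members, as a description over genes that are not independent. Oxidative phosphorylation transcripts are short, with a median of 758 bases against 2863 for all tested genes. Within the same length classes the members' median was 0.19 up to 500 bases and 0.26 from 501 to 700 bases. Both were below the value for all genes of that length. It was 0.30 from 701 to 1000 bases against 0.21 for all genes, and 0.22 from 1001 to 1500 bases against 0.18. For the 9 members from 1501 to 2000 bases it was 0.20 against 0.08, and for the 5 from 2001 to 3000 bases 0.16 against 0.04. The 1 longer member stood at -0.05, against -0.06 from 3001 to 5000 bases. When the length trend was removed in each library, a step added after seeing the data, 22 members were higher in SOM and 16 lower, with a median of 0.06, and 21 of the 62 kept their call. After that step 37.4% of all genes were higher and 34.9% lower, with a median of 0.025. With the trend of coding length removed instead, 48 members were higher, against 38.1% of all genes, and 6 lower, against 35.6%, with a median of 0.15. With the trend of transcript GC content removed, 62 members were higher, against 38.1% of all genes, and 3 lower, against 35.6%. With libraries scaled to total reads, 71 members were higher, against 44.3% of all genes, and 1 was lower, against 30.1%. The cause of the length trend was not tested.

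**Figure D1:**
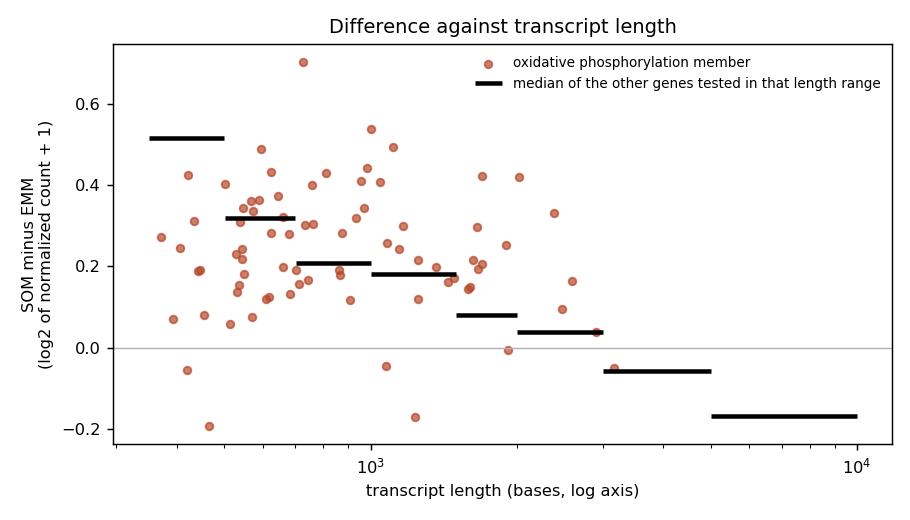
Difference (SOM minus EMM, log2 of normalized count + 1) against transcript length in bases on a log axis. Each dot is a tested member, without Ndufa4l2 at -1.79, and each bar is the median of the other tested genes in a length range; the first and last classes are open-ended, so the outer ends of their bars mark no length. The bars step down with length, and all 10 members of up to 500 bases lie below their bar, while 8 of 9 members from 1501 to 2000 bases lie above theirs.

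By complex, 29 of 36 tested members of complex I were higher in SOM and 1 was lower, with a median difference of 0.22. All 8 members of complex III were higher, with a median of 0.25, and in complex V 14 of 17 were higher and none lower, with a median of 0.27. These 17, taken by name, include Atp5s, which did not pass, and Atp5sl (Dmac2 in GENCODE), higher by 0.33. Neither counts as a subunit of the complex. In complex IV 10 of 14 were higher and 1 lower, with a median of 0.18. Complex II had 1 member higher, 1 lower and 2 that did not pass, with a median of -0.01. These counts stand against 36.0% of all genes tested higher in SOM and 36.1% lower. The difference between complexes was not tested. With the length trend removed, complex I had 11 members higher and 5 lower, complex II 0 and 1, complex III 2 and 3, complex IV 1 and 5, and complex V 8 and 2. In that setting 37.4% of all genes were higher and 34.9% lower.

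**Figure D2:**
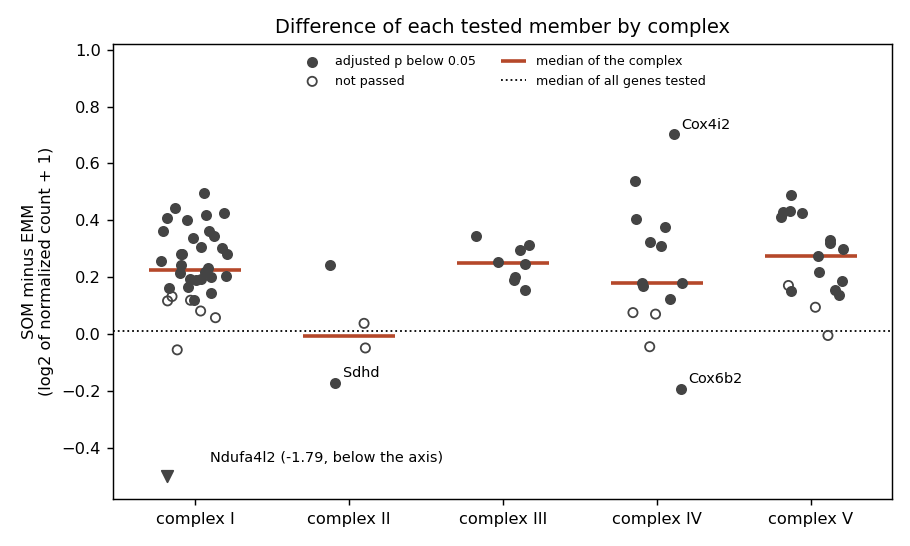
Difference (SOM minus EMM, log2 of normalized count + 1) of each tested member, by complex; filled points passed an adjusted p of 0.05, open points did not, red bars are medians and the dotted line is the median of all genes tested, 0.01. Complexes I, III, IV and V lie mostly above the line, and complex II spreads around it from -0.17 to 0.24; the triangle marks Ndufa4l2, which lies below the axis.

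The members tended to be high or low in the same libraries. The median deviation of the members from each gene's mean over all libraries was 0.16, 0.12, 0.18 and 0.02 in SOM1 to SOM4, against -0.18, -0.10, -0.13 and -0.09 in EMM1 to EMM4. SOM4 thus lay nearest to the EMM libraries, and it was the lowest SOM library in 60 of the 79 members. EMM1 was the lowest EMM library in 48 members. The 393 tested genes of up to 700 bases showed a similar profile, with median deviations of 0.21, 0.22, 0.25 and 0.07 in SOM1 to SOM4 and -0.22, -0.13, -0.21 and -0.15 in EMM1 to EMM4. Without SOM4 the members' median difference was 0.26, with 65 higher and 3 lower. The coefficient of variation of a member among pools had a median of 6.73% in SOM and 4.32% in EMM.

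**Figure D3:**
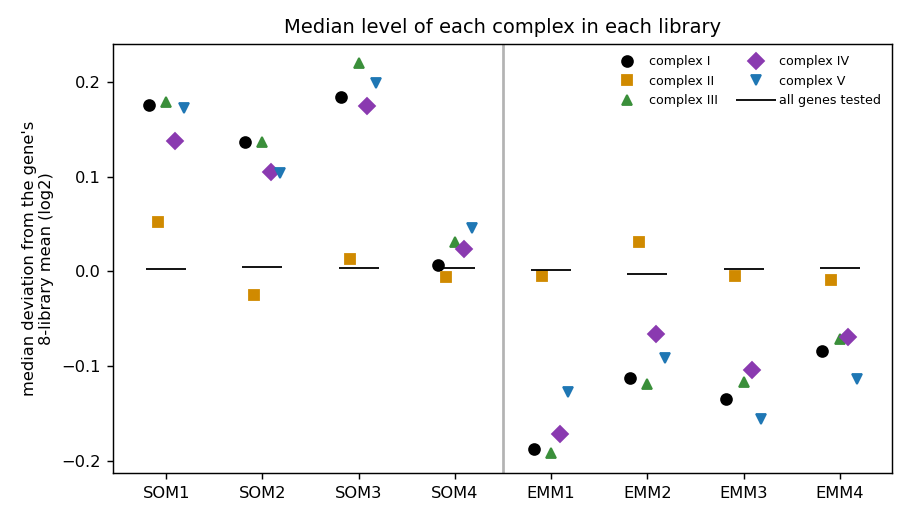
Median deviation (log2) of each complex's members from each gene's mean over the 8 libraries, per library; symbols are complexes and black dashes are all genes tested. Complexes I, III, IV and V lie above 0 in SOM1 to SOM4, with SOM4 closest to 0, and below 0 in EMM1 to EMM4, while complex II stays between -0.02 and 0.05.

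Complex I, the NADH dehydrogenase, has a peripheral arm with an N module, which binds NADH, and a Q module, which reduces ubiquinone, on a membrane arm that pumps protons. All 10 tested members of the N module were higher in SOM, with a median of 0.28, as were all 5 of the Q module, with a median of 0.40. Of the other 21 tested members 14 were higher and 1 lower, with a median of 0.19. Of all genes tested, 36.0% were higher and 36.1% lower. After removal of the length trend, 5 of 10 were higher in the N module, 4 of 5 in the Q module and 2 of the other 21, of which 5 were lower. The shares over all genes were then 37.4% higher and 34.9% lower. Ndufa12, an accessory subunit of the N module on chromosome 10 from 94198720 to 94221443, had 1881, 1803, 1852 and 1628 normalized counts in SOM, against 1214, 1328, 1253 and 1283 in EMM. The groups did not overlap, and the difference was 0.49 (SE 0.06, limma adjusted p = 8.35e-07). Ndufs8, an iron-sulfur subunit of the Q module, had 1670, 1634, 1693 and 1487 in SOM, against 1145, 1242, 1168 and 1212 in EMM, again without overlap. Its difference was 0.44 (SE 0.06, limma adjusted p = 2.35e-06). Ndufv2, an iron-sulfur subunit of the N module, averaged 2955 ± 308 in SOM and 2194 ± 65.3 in EMM (SD, n = 4 each), a difference of 0.42. Its lowest SOM library was SOM4, at 2518, which lay above the highest EMM library, at 2290. The core Q module subunits Ndufs3 and Ndufs7 differed by 0.41 and 0.40, and Ndufa10, a subunit of the membrane arm, by 0.42. Ndufa1, a small membrane subunit, averaged 949 ± 68.8 in SOM and 986 ± 73.4 in EMM and did not pass (difference -0.06, limma adjusted p = 0.468). It was lower in SOM with the trend of transcript length (-0.41, limma adjusted p = 3.54e-06) or of coding length removed (-0.22, limma adjusted p = 0.00162).

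Ndufs5 was listed at 0 in all 8 libraries. Of the 50-base words of its transcript, 41.2% also occur in another gene, BC002163, and reads of such words cannot be told apart. The cause of the 0 was not tested.

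Promoter sequences of 5 members, Ndufs8, Sdhb, Sdhd, Uqcrc1 and Atp5j, are given as examples of windows that hold a motif of a factor known to act on respiratory chain genes. They were chosen after their values were seen, from 29 members with such a window. The motifs searched are the core of NRF1 (GCATGCGC), the ETS motif bound by GABPA (CCGGAAG) and the motif of YY1 (AAGATGGC), searched on both strands. Windows are from RefSeq on GRCm38.p6, printed along the gene's own strand with the motif in capitals, which reads as the reverse complement where it lies on the other strand. The window of Ndufs8 spans chr19:3912725-3913024 on the minus strand and holds 1 ETS motif.
Ndufs8: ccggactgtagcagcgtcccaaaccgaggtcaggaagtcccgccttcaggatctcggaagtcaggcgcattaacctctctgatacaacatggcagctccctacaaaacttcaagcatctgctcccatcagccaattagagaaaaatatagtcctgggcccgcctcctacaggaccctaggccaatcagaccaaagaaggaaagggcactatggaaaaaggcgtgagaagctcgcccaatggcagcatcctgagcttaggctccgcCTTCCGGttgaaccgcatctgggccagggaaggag

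Ndufa4 and Ndufa4l2 carry complex I names, although NDUFA4 is now known as a subunit of complex IV. Ndufa4 had the highest level per length among complex I names, at 4607 normalized counts per kb of transcript in SOM and 4235 in EMM. Its 4 SOM libraries lay between 2680 and 2947 normalized counts and its EMM libraries between 2532 and 2623. The difference was 0.12 (SE 0.05, limma adjusted p = 0.0273), and it was -0.15 with the length trend removed. The call was lost without SOM1 (limma adjusted p = 0.103), SOM2 (0.0520), EMM1 (0.0698) or EMM4 (0.0553). Ndufa4l2, its paralog known to be induced by hypoxia, went the other way, with 7.56, 6.30, 14.04 and 24.04 normalized counts in SOM against 30.7, 36.1, 49.1 and 56.5 in EMM. All SOM libraries were below all EMM libraries, and the difference was -1.79 (SE 0.36, limma adjusted p = 0.000427). The paralog made up 0.31% of the pair's level per length in SOM and 1.08% in EMM. Of 10 tested pericyte markers 9 were also lower in SOM, against 36.1% of all genes tested, and 1 was higher, against 36.0%. Their differences ran from -4.14 for Acta2 to 0.33 for Cspg4, with a median of -2.11. Another marker, Higd1b, was at or near 0. The summed level over all 11 was 8797 to 11358 in SOM and 59213 to 66664 in EMM. In EMM most of it was Acta2 and Tagln, which averaged 38221 and 14623, against 2167 and 1546 in SOM. The part of pericytes in the Ndufa4l2 difference was not tested.

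Complex II, succinate dehydrogenase, consists of 2 catalytic subunits and 2 membrane anchors, and its members did not move together. Sdha, the flavoprotein, had 4890, 4749, 4876 and 4894 normalized counts in SOM, against 4756, 4701, 4730 and 4723 in EMM. These groups overlapped at SOM2, and the difference of 0.04 did not pass (limma adjusted p = 0.426). Sdhb, the iron-sulfur subunit, had 2812, 2701, 2923 and 2653 in SOM, against 2324, 2366, 2249 and 2422 in EMM. It was higher in SOM without overlap, by 0.24 (SE 0.05, limma adjusted p = 0.000288). Sdhc, an anchor, had 2633 ± 159 in SOM and 2722 ± 82.3 in EMM and did not pass (difference -0.05, limma adjusted p = 0.404). Sdhd, the other anchor, had 1939, 1911, 2096 and 2060 in SOM, against 2231, 2306, 2183 and 2287 in EMM. It was lower in SOM without overlap, with a difference of -0.17 (SE 0.05, limma adjusted p = 0.00519), and with all libraries scaled to their total reads the difference was -0.06 (limma adjusted p = 0.262). With the length trend removed Sdhb differed by 0.09 (limma adjusted p = 0.0545) and Sdhd by -0.31 (limma adjusted p = 2.59e-05). The windows of both genes hold an ETS motif, and that of Sdhb also holds an NRF1 core. The windows span chr4:140961021-140961320 on the plus strand for Sdhb and chr9:50603800-50604099 on the minus strand for Sdhd.
Sdhb: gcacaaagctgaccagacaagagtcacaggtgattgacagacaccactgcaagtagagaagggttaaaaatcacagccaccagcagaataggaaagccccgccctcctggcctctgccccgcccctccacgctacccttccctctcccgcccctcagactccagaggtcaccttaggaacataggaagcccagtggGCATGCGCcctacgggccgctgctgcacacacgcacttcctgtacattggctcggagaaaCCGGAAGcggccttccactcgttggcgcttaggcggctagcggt
Sdhd: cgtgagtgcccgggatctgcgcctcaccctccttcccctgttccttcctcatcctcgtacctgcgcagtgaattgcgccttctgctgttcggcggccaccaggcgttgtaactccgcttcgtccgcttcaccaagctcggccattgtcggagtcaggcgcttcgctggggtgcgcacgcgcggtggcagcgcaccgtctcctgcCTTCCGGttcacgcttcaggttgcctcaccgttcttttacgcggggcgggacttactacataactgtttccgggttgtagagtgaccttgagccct

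**Figure D4:**
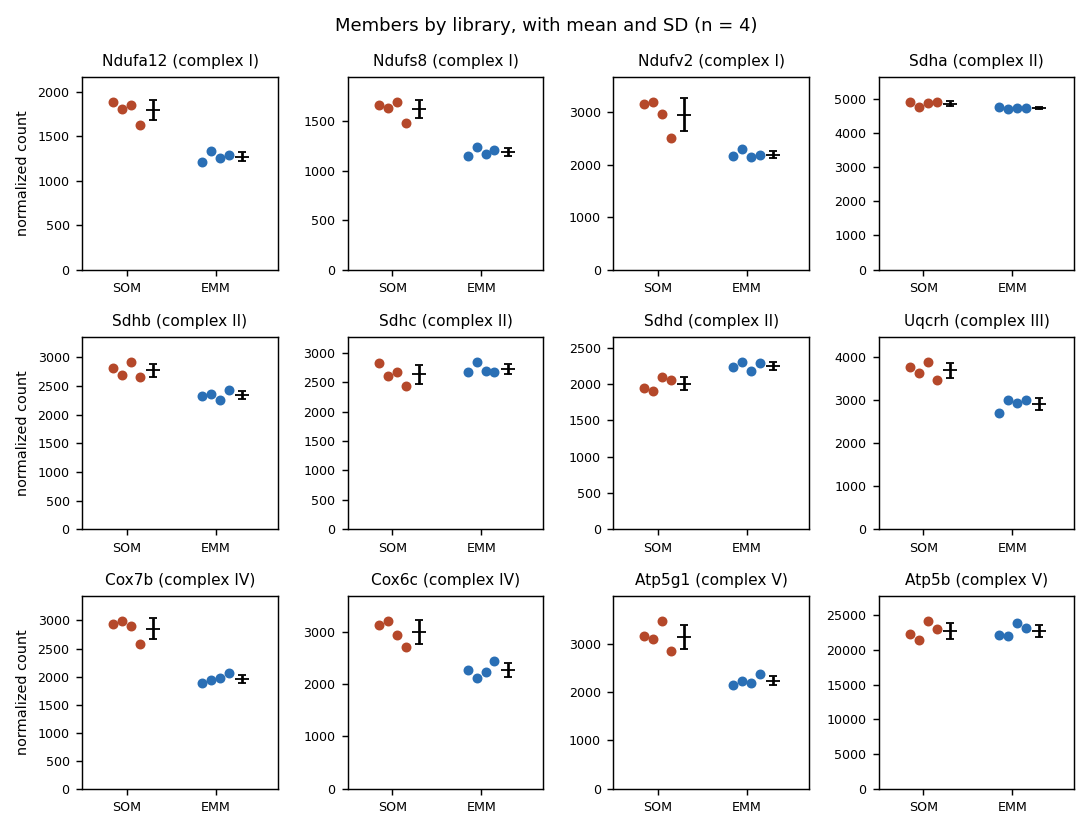
Normalized counts of 12 members in each library (dots), with mean and SD (n = 4), SOM left of EMM in each panel; each vertical axis starts at 0. The groups are apart in Ndufa12, Ndufs8, Ndufv2, Sdhb, Sdhd, Uqcrh, Cox7b, Cox6c and Atp5g1 and overlap in Sdha, Sdhc and Atp5b.

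In complex III every member was higher in SOM, by 0.15 to 0.34. Uqcrh, the hinge subunit, was the highest of the complex per length, at 6735 normalized counts per kb of transcript in SOM and 5307 in EMM. It had 3759, 3633, 3882 and 3463 normalized counts in SOM, against 2689, 3004, 2919 and 3000 in EMM. The groups were apart, with a difference of 0.34 (SE 0.05, limma adjusted p = 1.95e-05). Uqcrc1, a core subunit on chromosome 9 from 108936633 to 108949623, had 5433, 5363, 5695 and 5139 in SOM, against 4134, 4472, 4362 and 4641 in EMM, a difference of 0.30 (SE 0.05, limma adjusted p = 5.29e-05). Uqcr10, a small subunit, averaged 1595 ± 150 in SOM and 1282 ± 75.3 in EMM, a difference of 0.31, and Uqcrfs1, the Rieske iron-sulfur protein, averaged 1749 ± 65.9 in SOM and 1523 ± 63.5 in EMM, a difference of 0.20. Uqcrb, which helps to form the ubiquinone site, overlapped between groups, with 1803 to 2139 in SOM and 1729 to 1878 in EMM. With the length trend removed Uqcrh differed by 0.05 (limma adjusted p = 0.289), Uqcr10 by -0.03, Uqcrfs1 by 0.08 (limma adjusted p = 0.135), Uqcrb by -0.14 (limma adjusted p = 0.0158) and Uqcrc1, whose transcript is longer, by 0.23 (limma adjusted p = 0.000134). The window of Uqcrc1, chr9:108936398-108936697 on the plus strand, holds the NRF1 core on both strands, overlapping in a palindrome.
Uqcrc1: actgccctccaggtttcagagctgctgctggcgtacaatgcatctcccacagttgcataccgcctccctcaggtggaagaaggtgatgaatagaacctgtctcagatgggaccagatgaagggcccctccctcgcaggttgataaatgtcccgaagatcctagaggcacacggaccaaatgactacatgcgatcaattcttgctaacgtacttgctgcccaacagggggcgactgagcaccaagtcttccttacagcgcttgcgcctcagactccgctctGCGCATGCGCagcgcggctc

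Complex IV, cytochrome c oxidase, holds several subunits that exist as a ubiquitous and a tissue-restricted isoform. Its largest difference among abundant members was in Cox7b, a small membrane subunit on chromosome X from 106015700 to 106022450. Cox7b had 2945, 2984, 2906 and 2589 normalized counts in SOM, against 1895, 1932, 1966 and 2063 in EMM. The groups were well apart and the difference was 0.54 (SE 0.05, limma adjusted p = 1.89e-07), and 0.36 with the length trend removed. Cox6c, another small subunit, averaged 2994 ± 222 in SOM and 2262 ± 131 in EMM, a difference of 0.40 (SE 0.06, limma adjusted p = 1.48e-05). Cox5a, which faces the matrix, averaged 1932 ± 132 in SOM and 1489 ± 78.5 in EMM, a difference of 0.37 (SE 0.06, limma adjusted p = 2.72e-05). With the length trend removed neither passed, at 0.09 for Cox6c (limma adjusted p = 0.125) and 0.11 for Cox5a (limma adjusted p = 0.0758). Cox7a2l, known for joining complexes III and IV into supercomplexes, averaged 2672 ± 114 in SOM and 2759 ± 190 in EMM and did not pass, but was lower in SOM with the length trend removed (-0.21, limma adjusted p = 0.00127).

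Ubiquitous isoforms made up most of each pair's level in both groups. Cox4i1, the highest member of complex IV per length, had 8283 normalized counts per kb in SOM and 7376 in EMM, and differed by 0.17 (SE 0.05, limma adjusted p = 0.00869) with overlapping groups. It did not pass with the length trend removed (-0.06, limma adjusted p = 0.156) or the GC trend removed (0.09, limma adjusted p = 0.0737). Its isoform Cox4i2, best known from lung, had 76.8, 59.5, 65.1 and 84.1 normalized counts in SOM, against 36.8, 48.8, 61.7 and 31.0 in EMM. The groups overlapped at SOM2 and EMM3, and the difference was 0.70 (SE 0.21, limma adjusted p = 0.00586), and 0.47 with the length trend removed (limma adjusted p = 0.0612). Cox4i2 made up 1.18% ± 0.23 of the pair in SOM and 0.83% ± 0.27 in EMM. The Cox4i2 difference was opposite in sign to that of Ndufa4l2 and of most pericyte markers. The part of pericytes in it was not tested.

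Cox6b1 was between 3591 and 3849 normalized counts in SOM and between 3192 and 3494 in EMM, and differed by 0.12 (SE 0.05, limma adjusted p = 0.0262). The call was lost without SOM3 (limma adjusted p = 0.0706) or EMM1 (0.0934), and the difference was -0.14 with the length trend removed. Its isoform Cox6b2, best known from testis, had 324, 315, 389 and 367 in SOM, against 375, 396, 408 and 411 in EMM. The groups overlapped at SOM3 and EMM1, the difference was -0.19 (SE 0.08, limma adjusted p = 0.0460), and it did not pass with edgeR (adjusted p = 0.0727) or DESeq2 (adjusted p = 0.0881). It was also lost without SOM1, SOM2, EMM2, EMM3 or EMM4, with limma adjusted p-values of 0.0724 to 0.147. As a share of the pair per length, Cox6b2 made up 10.7%, 10.4%, 11.9% and 11.9% in SOM, against 13.5%, 13.5%, 13.8% and 13.5% in EMM, without overlap.

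Cox7a2 averaged 2238 ± 105 normalized counts in SOM and 1788 ± 57.6 in EMM, a difference of 0.32 (SE 0.05, limma adjusted p = 2.65e-05), and 0.07 with the length trend removed (limma adjusted p = 0.151). Its heart and skeletal muscle isoform Cox7a1 was at a low level, at 9.57 to 12.6 in SOM and 6.27 to 18.1 in EMM, and did not pass (difference 0.07, limma adjusted p = 0.862). The muscle isoform Cox6a2 had 1 read in all SOM libraries together and 5 in all EMM libraries, and Cox7b2 had 7 reads in SOM and 3 in EMM. Cox8b and Cox8c had no reads in either group, where 3 reads correspond to between 1.91 and 5.42 normalized counts per library. Of 9 tested skeletal muscle markers 7 were lower in SOM, against 36.1% of all genes tested, and none was higher, against 36.0%. Their summed level over 15 was 205 to 238 in SOM and 510 to 757 in EMM, with Myf5 and Myf6 at 0. Their part in the muscle isoform values was not tested. The ubiquitous Cox6a1 did not pass (difference 0.08, limma adjusted p = 0.237), but did without SOM4 (0.13, limma adjusted p = 0.0317) and with total-read scaling (0.19, limma adjusted p = 0.00658). Cox6a1 was lower in SOM with the length trend removed (-0.21, limma adjusted p = 0.000795). Cox8a differed by 0.18 (SE 0.05, limma adjusted p = 0.00722). It was -0.11 with the length trend removed (limma adjusted p = 0.0497), and did not pass with the coding length trend (0.01) or the GC trend removed (0.09, limma adjusted p = 0.0704).

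**Figure D5:**
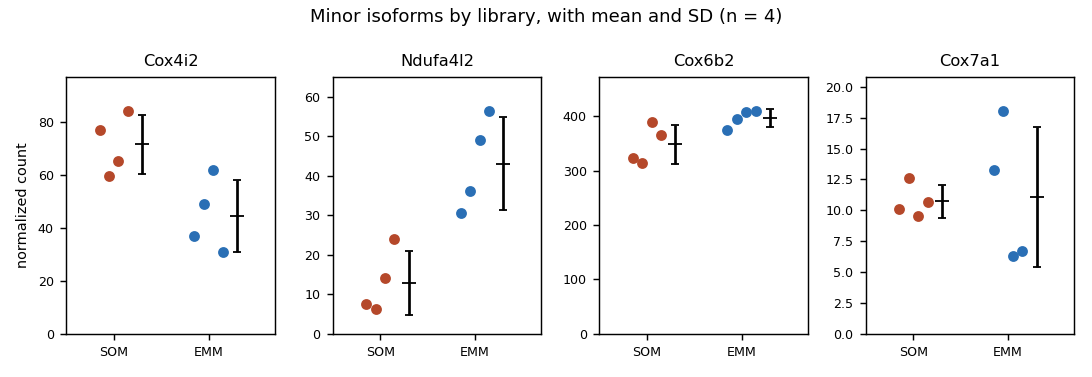
Normalized counts of 4 tissue-restricted isoforms in each library (dots), with mean and SD (n = 4), SOM left of EMM. Cox4i2 is higher in SOM with overlap, Ndufa4l2 is lower in SOM without overlap, Cox6b2 is lower in SOM with overlap, and Cox7a1 lies between 6.27 and 18.1 in all libraries.

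In complex V the differences were largest outside the catalytic pair. Atp5b and Atp5a1, the catalytic beta and the alpha subunit of the F1 head, did not pass. Atp5b was the highest of all members per length, at 11872 normalized counts per kb in SOM and 11910 in EMM, with 22333, 21497, 24143 and 23016 normalized counts in SOM against 22199, 22051, 23878 and 23153 in EMM. Its groups overlapped fully, and the difference was -0.01 (SE 0.05, limma adjusted p = 0.927). With total-read scaling it was 0.11 (limma adjusted p = 0.0386), on a scale where the median of all genes was 0.12. Atp5a1 averaged 18502 ± 483 in SOM and 17332 ± 322 in EMM, a difference of 0.09 (SE 0.04, limma adjusted p = 0.0541). In the authors' deposited table, which gives EMM over SOM, Atp5a1 stood at -0.09 with an adjusted p of 0.0300. The other F1 subunits Atp5c1, Atp5d and Atp5e, which form the central stalk, were higher in SOM by 0.30, 0.32 and 0.43. After removal of the length trend they differed by 0.15, 0.13 and 0.07, and Atp5e did not pass (limma adjusted p = 0.155), while Atp5a1 passed at 0.09 (limma adjusted p = 0.0487).

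Subunit c, which forms the rotating ring in the membrane, is encoded by Atp5g1, Atp5g2 and Atp5g3, which give the same mature protein. Atp5g1 had 3149, 3100, 3459 and 2848 normalized counts in SOM, against 2148, 2236, 2188 and 2363 in EMM, without overlap (difference 0.49, SE 0.06, limma adjusted p = 1.32e-06). Atp5g2 differed by 0.19 (SE 0.06, limma adjusted p = 0.00862) and Atp5g3 by 0.16 (SE 0.04, limma adjusted p = 0.00446). As a share of the family's level per length, Atp5g1 made up 24.8% in SOM and 21.0% in EMM, Atp5g2 43.2% in SOM and 45.0% in EMM, and Atp5g3 32.0% in SOM and 34.0% in EMM. Atp5g1 and Atp5g2 share 66.0% and 100% of their 50-base words with other annotated genes, so their counts are uncertain. The transcript used for Atp5g2 had 441 bases, 438 of them coding, so its share per length rests on almost only coding sequence. For Atp5g1 it had 596 bases, 408 of them coding, and for Atp5g3 714 bases, 423 of them coding. With the length trend removed the differences were 0.21 for Atp5g1, -0.15 for Atp5g2 and -0.08 for Atp5g3. The Atp5g2 value there rests on the same 441 bases.

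Atp5h, subunit d of the peripheral stalk, had 4984, 5043, 5199 and 4407 normalized counts in SOM, against 3471, 3665, 3636 and 3746 in EMM. The groups did not overlap, and the difference was 0.43 (SE 0.05, limma adjusted p = 2.27e-06). Atp5j, a coupling factor of the same stalk, had 3899, 3982, 3652 and 3286 in SOM, against 2767, 2731, 2696 and 2771 in EMM, also without overlap (difference 0.43, SE 0.06, limma adjusted p = 4.27e-06). It shares exonic bases with Gabpa, which lies next to it, was lower in SOM (difference -0.39) and encodes a subunit of the factor that binds the ETS motif. Whether counting used the strand is not known from the sources used. With the length trend removed Atp5h differed by 0.17 (limma adjusted p = 0.00132) and Atp5j by 0.22 (limma adjusted p = 0.000527). A promoter window of Atp5j, chr16:84834927-84835226 on the minus strand, holds a YY1 motif followed by an ETS motif, and the other window of this gene, chr16:84835576-84835875, holds none of the motifs.
Atp5j: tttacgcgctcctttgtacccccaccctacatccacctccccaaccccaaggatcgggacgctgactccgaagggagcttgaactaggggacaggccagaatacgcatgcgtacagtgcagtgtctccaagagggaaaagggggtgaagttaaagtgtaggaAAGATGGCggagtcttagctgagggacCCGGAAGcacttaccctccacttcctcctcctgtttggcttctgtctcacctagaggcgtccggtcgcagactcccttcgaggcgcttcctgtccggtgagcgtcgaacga

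Promoter windows were matched for 66 of the 84 members, with 71 windows in all. The NRF1 core was in 14.1% of them, against 4.90% of the windows of tested genes and 2.71% of the 32851 windows of all genes. The ETS motif was in 22.5% of them, against 15.7% and 8.86%, and the YY1 motif in 12.7%, against 4.00% and 2.75%. At least 1 of the motifs was in 40.8% of the members' windows, in 22.5% of the windows of all tested genes and in 13.3% of all windows. YY1 motifs were in 7 of 34 windows of complex I and 2 of 16 of complex V. None was in the 3, 5 and 13 windows of complexes II, III and IV. With so few windows, the complexes cannot be told apart. Ndufa12, Cox7b and Atp5g1, with the largest differences among abundant members of their complexes, had no match in these windows. Those with the largest differences in complexes II and III did have one. Sdhb held an ETS motif and an NRF1 core, and Uqcrh an ETS motif.

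The transcripts of 6 members share at least 50% of their 50-base words with another annotated gene: Atp5g2, Atp5l, Atp5g1, Atp5o, Cox7c and Atp5h. A further property of the counts is that 29 members share exonic bases with another gene, 5 of them on the same strand. The annotated gene matched to Atp5o spans chr16:91684398-91926982 and overlaps Donson on the same strand. The promoter window of Atp5o, chr16:91931581-91931880, lies outside that span. Its length, shared words and overlap may therefore not describe the gene that was counted.

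Genes that work with the complexes were also followed, from lists of their subunits outside the symbol rule, assembly factors and partners. Their counts stand against 36.0% of all genes tested higher in SOM and 36.1% lower. Of 9 other subunits and partners 8 were higher in SOM and none lower, with a median of 0.29, and with the length trend removed 4 were higher and 2 lower. Among them Higd1a, linked to complex IV, averaged 1043 ± 62.4 in SOM and 794 ± 89.1 in EMM, and Cyc1, cytochrome c1 of complex III, averaged 3040 ± 104 in SOM and 2490 ± 128 in EMM. Of 15 assembly factors of complex I 11 were higher and 1 lower, with a median of 0.30. Ndufaf2, which assists late assembly, averaged 607 ± 48.2 in SOM and 369 ± 40.9 in EMM (difference 0.72), and Tmem126b, needed for the membrane arm, averaged 227 ± 13.9 in SOM and 306 ± 9.64 in EMM (difference -0.43). Of 18 assembly factors of complex IV 5 were higher and 1 lower, with a median of 0.12. Of these Cox20, a chaperone of a mitochondrially encoded subunit, differed by 0.79 and Coa5 by -0.42. For complexes II and III together 5 of 10 assembly factors were higher and none lower, with Sdhaf1 differing by 0.56, and for complex V 1 of 4 was higher, Atpaf2, by 0.27.

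Of 13 genes of ubiquinone synthesis and handling 7 were higher in SOM and 1 lower, with a median of 0.28. Pdss1, which makes the side chain, differed by 0.64 and Coq10b, a ubiquinone-binding protein, by -0.61. In the citric acid cycle 5 of 13 genes were higher and 1 lower, a share higher near the 36.0% of all genes, with a median of 0.10. Idh3g, a subunit of isocitrate dehydrogenase, differed by 0.35 and Ogdh, of the oxoglutarate dehydrogenase complex, by -0.20. Cs, citrate synthase, averaged 6054 ± 58.5 in SOM and 6047 ± 231 in EMM and did not pass (difference 0.00, limma adjusted p = 0.962).

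Among 17 regulators of mitochondrial genes 8 were higher in SOM and 4 lower, against 36.0% and 36.1% of all genes tested. Of those that copy, pack or transcribe mitochondrial DNA, Peo1, the mitochondrial helicase, averaged 918 ± 30.5 in SOM and 538 ± 31.9 in EMM (difference 0.77), Polrmt, the mitochondrial RNA polymerase, differed by 0.69, and Tfam, which packs mitochondrial DNA, by 0.49. Polg, the catalytic subunit of the mitochondrial DNA polymerase, was lower in SOM, with a difference of -0.44. Ppargc1a, a coactivator known for driving mitochondrial biogenesis, averaged 57.9 ± 7.49 in SOM and 245 ± 27.1 in EMM (difference -2.07, SE 0.13, limma adjusted p = 7.86e-10). Nrf1 differed by 0.33, Gabpa by -0.39, and Yy1 did not pass. Of 14 hypoxia-responsive genes 3 were higher and 5 lower, against 36.0% and 36.1% of all genes tested. The share lower was thus near that of all genes, and the share higher was below it. Adm, a vasoactive peptide, was at 38.5 ± 5.74 in SOM and 172 ± 34.6 in EMM (difference -2.12), and Higd1a was the highest at 0.40.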

How the data were processed

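Total RNA of 4 SOM and 4 EMM pools was sequenced after TruSeq library preparation, per the labels' protocols. Tools in the submitters' processing notes are STAR, bcl2fastq and DESeq2 (no versions), with build mm10. How reads were counted, with which annotation and by strand or not, is not given in the sources used. The authors deposited 1 table, and its library columns hold signal, that is size-factor-scaled reads (normalized counts). Per the file headers, the deposited table further gives the authors' log2 fold change (EMM over SOM), its Wald score, and a raw and an adjusted p-value.

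Reads were recovered by division, with 100% of values whole. 3 reads, the floor, were 1.91 to 5.42 normalized counts, and this covers counting error only. Values were taken as log2(normalized count + 1), which understates changes of low genes, for genes with at least 10 in at least 4 libraries, using R 4.3.3 and limma 3.58.1 (trend and robust options, no covariate). Benjamini-Hochberg adjustment ran over all 14249 genes. edgeR 4.0.16, DESeq2 1.42.0 and voom on the recovered reads, other scalings, pseudocounts and filters, a replicate block and each library left out were alternatives. On the recovered reads edgeR called 10350 genes, against 10278 by limma. Removal of transcript length, coding length and GC trends was added after seeing the data. Chi-square per degree of freedom between libraries of a group was 3.59 to 18.8, so none was a duplicate. The fit was tested on simulated data with known changes.

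Lengths, positions and exonic overlaps came from GENCODE M21 on GRCm38, the assembly of mm10. The members and lists were chosen with earlier results of these data known. The planned list gave a wrong older symbol for Ndufaf8, which was replaced by the RefSeq one. Members given in full were, per complex and direction, the 3 called with the largest difference and a mean of at least 100, those called against their complex, all isoform families with a mean of at least 10, and the highest per length. From each partner list the called gene with the largest difference per direction was named. Other genes named were chosen after their values were seen.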

Additional observations from a re-analysis of the deposited data

Results flagged for a closer look

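Of 66 groups of 4 libraries examined for a library far from the others, 3 stood out, and chance gives about 1 in 20. Cox6b1 had 3849 normalized counts in SOM3, while the other SOM libraries lay between 3591 and 3610. Atp5g2 had 3342 in EMM1, while the other EMM libraries lay between 3602 and 3642. The median deviation of complex II was 0.031 in EMM2, while it lay between -0.0092 and -0.0049 in the other EMM libraries.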

How the results depend on the processing

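The members' median was above 0 under every setting run. With the transcript length trend removed, however, the median of all genes was 0.025, with 37.4% of them higher in SOM and 34.9% lower. With the transcript length trend removed, the counts of members higher and lower in SOM were 22 and 16 overall (median 0.060), 11 and 5 in complex I (0.065), 2 and 3 in complex III (0.00799), 1 and 5 in complex IV (-0.0418) and 8 and 2 in complex V (0.072), and complex II had none higher, 0 against 1, with a median of 0.024. In the same setting other subunits had 4 higher and 2 lower, and assembly factors had 1 lower for complexes II and III and 3 lower for complex IV. Ndufa4 (-0.15), Cox6b1 (-0.14), Cox8a (-0.11) and Atp5g2 (-0.15) turned round and were called lower in SOM, with limma adjusted p-values of 0.00434 to 0.0497. The Atp5g2 value rests on a transcript of 441 bases, 438 of them coding. Uqcr10 (-0.035), Cox4i1 (-0.063) and Atp5g3 (-0.083) changed sign but did not pass. With the coding length trend removed, 6 members were lower (median 0.15), with 2 lower in each of complexes I, II and IV and 5 higher in complex III, and medians of 0.16 in complex III, 0.088 in complex IV and 0.14 in complex V. Other subunits then had 5 higher, assembly factors of complexes II and III 1 lower, and citric acid cycle genes 8 higher and 0 lower; Ndufa4 was -0.031 and Cox6b1 -0.023. With total-read scaling the median of all genes was 0.12 and that of the members 0.33, with 1 lower. The medians were 0.34 in complex I, 0.11 in complex II (2 higher, 0 lower), 0.36 in complex III, 0.29 in complex IV (0 lower) and 0.39 in complex V. Higher in SOM were then 11 assembly factors of complex IV and 4 of complex V, and 9 citric acid cycle genes, with 0 lower. The complex II median was 0.029 with upper quartile scaling and 0.034 with the GC trend removed, and both gave 8 citric acid cycle genes higher, and the GC setting 2 assembly factors of complex V. Complex IV had 0 lower under upper quartile and TMM scaling, no filter, edgeR, DESeq2 and voom, and complex I had 0 lower with the filter at 50. Moving Ndufa4 and Ndufa4l2 to complex IV gave 0 lower in complex I and 2 in complex IV. The cause was not tested for any of these. Leaving out each library in turn gave 56 to 65 members higher and 2 to 3 lower, complex IV with 0 to 1 lower and a median of 0.15 to 0.26, complex V a median of 0.22 to 0.31, assembly factors of complex IV 3 to 6 higher and citric acid cycle genes 1 to 2 lower. Same-numbered SOM and EMM libraries correlated by 0.13, 0.01, 0.04 and -0.02, and differently numbered ones by -0.15 to 0.10. This cannot decide whether pools share embryos, as pools of different tissues from the same embryos need not deviate alike. With the replicate block 62 members were higher and 3 lower, and no call of a named member changed. Depth limits Cox7a1 and Ndufa4l2, whose lowest libraries lay within a few reads of the floor of 3 reads.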
